A study of Mus musculus with 32 samples.

Results

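The comparison described here is that of Chd8+/- with wild-type mouse embryos at E16.0, a stage named by the day of embryonic development, in the dorsal telencephalon, the part of the embryonic forebrain that forms the cerebral cortex. It takes the 8 libraries labelled E16.0, 4 from Chd8+/- embryos (called het) and 4 from wild-type embryos (WT), of the 32 libraries of the series. All UMIs, each of which marks 1 captured RNA molecule, were summed per library over barcodes with at least 1000 UMIs and 500 genes. These were 42371 of the 143705 such barcodes of the whole series, and all genes were compared.

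The series holds the same 2 genotypes at 4 stages, the others being E12.5, E14.5 and E17.5, and each stage has 4 pairs matched for litter and sex. All embryos were of the C57BL/6J strain, each embryo gave 1 library, and the medial tissue was removed so that the primordium of the hippocampus was left out. Libraries were made with the 3′ chemistry v2 of 10x Genomics, in which reads come from the 3′ end of a transcript. At E16.0 the pairs are named M1 and M2 (males) and F1 and F2 (females), and a WT and a het library share each name. The genotype label gives 1 intact copy of Chd8 in het embryos and does not state which part of the other copy is altered.

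Chd8 encodes an ATP-dependent chromatin remodeller of the chromodomain helicase family that binds promoters of active genes. It is known as a partner of beta-catenin and of p53, and loss of 1 human copy is among the best established single-gene causes of autism. In the dorsal telencephalon, radial glia divide and give rise to intermediate progenitors, which produce the excitatory neurons of the deep and then of the upper cortical layers, while interneurons migrate in from the ventral forebrain.

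Depth overlapped between the genotypes. Kept libraries held between 3245 and 7388 barcodes and between 21526605 and 47992103 UMIs, WT F2 being the lowest and het M2 the highest in both. The median barcode held 5615 ± 328 UMIs in WT libraries, against 5414 ± 529 in het (SD, n = 4 each), with p = 0.457 (2-sided exact permutation test, 70 splits), and the smallest p this design allows is 0.0286. Het had more kept barcodes in 4 of 4 pairs, with 5828.5 ± 1163 where WT had 4764 ± 1116. The groups overlapped, with p = 0.200 by the same exact test, which ignores the pairs. Mitochondrial genes took 1.20 ± 0.0821% of UMIs at the median barcode of WT and 1.19 ± 0.106% of het libraries. Doublets were not removed, and any 2 libraries shared between 0.546% and 1.256% of the barcodes of the smaller one. Sex labels matched the data in 8 of 8 libraries: Xist lay between 1009 and 1805 UMIs per 1000000 UMIs of a library (CPM) in females and between 0.0312 and 0.296 in males. All 4 males share a library code that starts with one prefix and all 4 females another, so sex and that prefix, whose meaning the labels do not give, cannot be told apart.

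Chd8 itself was lower in every het library than in every WT library. WT libraries had 51.7, 57.4, 53.7 and 56.2 CPM (pairs M1, M2, F1, F2, the order used throughout), het libraries 49.5, 39.0, 44.3 and 45.0 CPM, on at least 1209 UMIs each. The groups did not overlap, and het M1 came nearest to the WT libraries. The fitted difference was -0.31 on the log2 scale (SE 0.07), a fold of 0.807 of the WT level. It did not pass 0.05 by edgeR's quasi-likelihood test with the pair as a block and Benjamini-Hochberg adjustment over 14923 genes (adjusted p = 0.980). A 3′ read may lie outside the altered part of the gene, so these values test the genotype labels only that far. The position of Chd8 (ENSMUSG00000053754) in GENCODE M21 is chromosome 14, 52198151 to 52257780, minus strand (GRCm38, also called mm10), and Snord8 (minus) and Gm26590 (plus) overlap it.

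Across all genes, no gene passed the adjusted threshold at E16.0 (0 of 14923, 0%). At an unadjusted p under 0.05 there were 707 genes, 258 higher (1.73%) and 449 lower (3.01%) in het. Together they are a share below the 0.05 that this threshold passes when no gene differs. The number of 707 changed with the pairs used, being 1546 without M1 and 339 without F1, and it was 434 without the block. Limma-voom with the same block also called 0 genes. DESeq2 with the block called 6 genes (0.0402%), Crlf2 and Zcwpw1 higher and Car14, Mt1, Mt2 and Gm42418 lower in het. The edgeR fit over all 32 libraries, in which the 4 stages share 1 estimate of the spread, called 2 genes at E16.0 (0.0125% of 15997), Crlf2 higher and Car14 lower, and 0 without the block. Without a filter on low counts edgeR called 4 (0.0172% of 23200), namely Crlf2, Zcwpw1, Car14 and Marco, the last of these a scavenger receptor of macrophages. By CPM alone, 179 genes had all 4 het libraries above all 4 WT libraries (1.2%) and 107 had them all below (0.717%). The median log2 difference over all tested genes was -0.0023.

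Promoter sequences are shown for 3 of the genes that follow, for Crlf2 because it had the lowest p of all genes, and for Mt1 and Mt2 because these neighbours differed together. Each runs 5′ to 3′ on the strand of the gene, from 250 bases before to 50 after the start that RefSeq gives (GRCm38.p6), with chr5:109558944-109559243 (minus strand) for Crlf2, chr8:94178839-94179138 (plus) for Mt1 and chr8:94172368-94172667 (plus) for Mt2. Capitals mark matches on either strand to TGCACNC or TGCGCNC, the core of the metal response element to which the zinc-sensing factor MTF1 binds.
Crlf2 promoter: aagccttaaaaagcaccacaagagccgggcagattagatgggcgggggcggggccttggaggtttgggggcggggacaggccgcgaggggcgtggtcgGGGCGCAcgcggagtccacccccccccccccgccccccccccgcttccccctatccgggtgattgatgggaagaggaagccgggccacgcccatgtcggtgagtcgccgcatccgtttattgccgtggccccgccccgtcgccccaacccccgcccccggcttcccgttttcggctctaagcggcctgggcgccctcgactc
Mt1 promoter: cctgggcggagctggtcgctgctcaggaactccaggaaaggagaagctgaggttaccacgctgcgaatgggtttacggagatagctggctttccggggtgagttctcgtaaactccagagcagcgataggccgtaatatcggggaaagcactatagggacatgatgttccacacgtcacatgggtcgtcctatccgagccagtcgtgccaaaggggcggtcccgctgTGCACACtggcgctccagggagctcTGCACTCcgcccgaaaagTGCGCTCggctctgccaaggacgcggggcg
Mt2 promoter: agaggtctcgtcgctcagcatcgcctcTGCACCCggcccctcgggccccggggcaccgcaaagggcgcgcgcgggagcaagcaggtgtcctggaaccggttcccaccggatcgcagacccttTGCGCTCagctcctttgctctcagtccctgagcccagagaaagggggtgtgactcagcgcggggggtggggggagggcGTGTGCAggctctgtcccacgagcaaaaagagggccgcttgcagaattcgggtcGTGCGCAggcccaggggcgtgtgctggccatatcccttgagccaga
The Mt1 promoter held 3 such matches, which 1.97% of 32851 RefSeq promoters of this length reach, and the Mt2 promoter held 4, which 0.517% reach. At least 1 match was present in 25.7% of all promoters, the single match in Crlf2 among them. The Crlf2 promoter was rich in CG dinucleotides, with 31, a number that 10.6% of promoters reach, and it held neither CCGGAAG (the core of ETS factor sites, in 8.86% of promoters) nor CACGTG (an E-box, in 7.15%). A match in letters does not show that a factor binds there.

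Crlf2, which encodes a subunit of the receptor for the cytokine TSLP, was the gene with the lowest p. WT libraries had 17.9, 18.9, 20.4 and 15.4 CPM (same order of pairs), het libraries 28.2, 29.9, 29.8 and 28.1 CPM. All het libraries were close to each other and above the highest WT library, in both sexes. The log2 difference was 0.68 (SE 0.07), or 1.60-fold, with an adjusted p of 0.218 by edgeR and of 4.12e-06 by DESeq2, both with the pair as a block. Its position is chromosome 5, 109554709 to 109558993, minus strand, where no other annotated gene overlaps it. Of 14 listed genes of this receptor's pathway, 10 were tested, with a median log2 difference of 0.01, 6 fitted higher and 4 lower. The ligand gene Tslp was between 0.146 and 0.375 CPM and was not tested. Cish, an inhibitor induced by STAT5, was at 7.59, 6.30, 6.74 and 5.62 CPM in WT and 8.44, 7.71, 8.41 and 7.28 CPM in het libraries, higher in 4 of 4 pairs with overlapping groups (log2 difference 0.28, SE 0.10, adjusted p = 0.980 by edgeR). Socs3, an inhibitor induced by STAT3, was lower in 4 of 4 pairs (-0.21, SE 0.09, adjusted p = 0.980 by edgeR).

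Zcwpw1 had the highest fold of the 12 genes with the lowest p among those higher in het. It encodes a reader of histone H3 methylation that acts in meiotic recombination. WT libraries had 6.37, 8.04, 6.06 and 8.50 CPM, in the same order of pairs, and het libraries had 16.5, 11.4, 9.82 and 12.9 CPM. The groups did not overlap, and the widest gap was in pair M1. The log2 difference was 0.79 (SE 0.13), or 1.73-fold, with an adjusted p of 0.853 by edgeR and 0.00538 by DESeq2. Its position is chromosome 5, 137787798 to 137822621, plus strand, overlapping Pilra on the opposite strand. Of the 7 listed genes with a CW domain, Zcwpw1 alone had an unadjusted p under 0.05, and the median of the list was 0.0024. The list was drawn up around Zcwpw1, which was known from earlier results of these data, and over all genes 1.73% were higher and 3.01% lower at that threshold.

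These 12 genes, taken among those with a mean of at least 5 CPM, held 10 besides Crlf2 and Zcwpw1, and none passed adjustment by edgeR (adjusted p between 0.853 and 0.980). Xrcc4, a partner of DNA ligase IV in the joining of DNA ends, was at 16.7, 17.4, 14.8 and 17.002 CPM in WT and 22.6, 24.02, 19.97 and 22.4 CPM in het libraries, without overlap (log2 difference 0.43, SE 0.07). Prss36, a serine protease gene, was at 9.27, 8.91, 9.23 and 9.89 CPM in WT and 13.8, 12.7, 13.3 and 12.6 CPM in het libraries, with SDs of 0.413 and 0.558 CPM. BC025920, which overlaps Gm26896 on the opposite strand, was at 11.4 ± 0.770 CPM in WT and 16.4 ± 1.22 CPM in het libraries (SD, n = 4 each). The groups of these 3 genes did not overlap. Krt10, a keratin of the epidermis, was at 59.5 ± 5.53 and 75.7 ± 3.37 CPM, and Nsmce1, a subunit of the SMC5/6 complex that handles DNA damage, at 118 ± 6.43 and 139 ± 9.82 CPM. Nat9, Nfs1 and Dnajc4 also had every het library above every WT library, with log2 differences of 0.31, 0.28 and 0.31. Annotated genes also overlap Xrcc4, Krt10, Nat9 and Nfs1, among them Romo1 on the opposite and Gm28036 on the same strand as Nfs1. Nfs1 makes the sulfur of iron-sulfur clusters available, and Dnajc4 is a J-domain protein. For Gucy1a1, a subunit of the nitric oxide receptor guanylate cyclase, and Tmem106c, the groups overlapped although het was higher in 4 of 4 pairs. Gucy1a1, named for its low p in the paired fit, was at 18.3, 18.01, 23.2 and 11.1 CPM in WT and 23.6, 20.6, 28.7 and 14.9 CPM in het libraries.

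**Figure D1:**
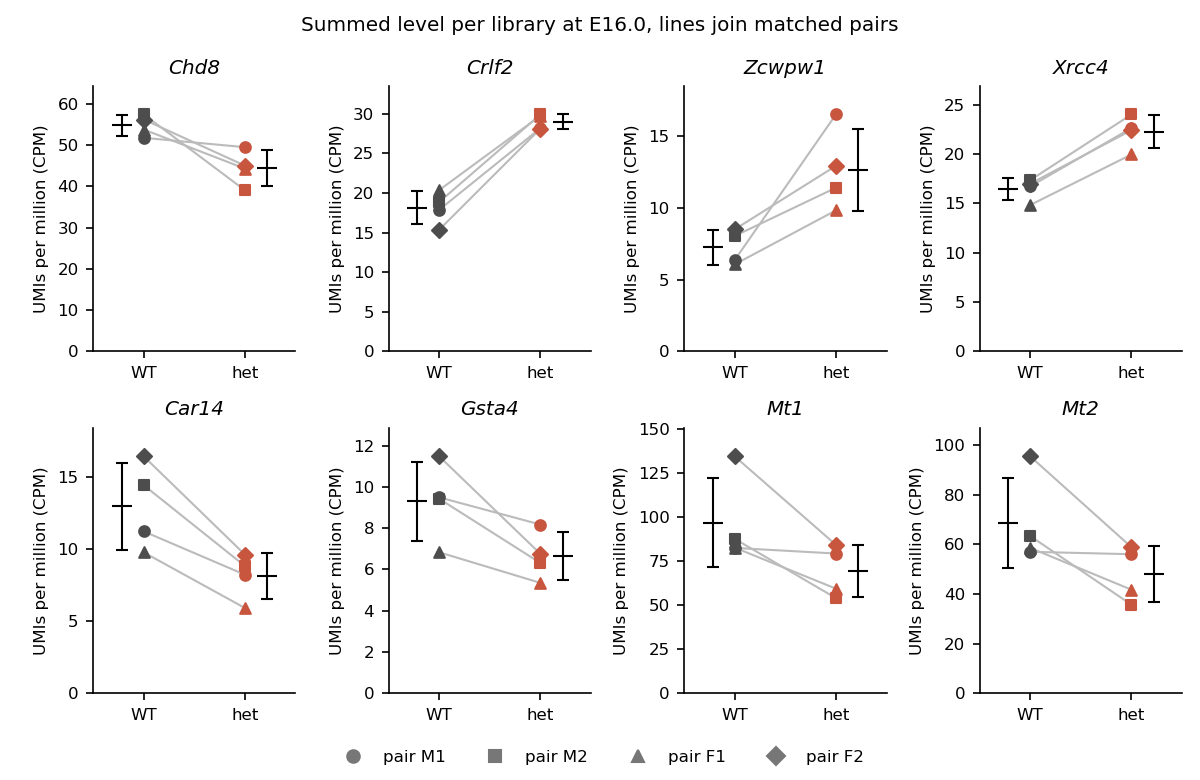
Summed level per library at E16.0 in CPM (y axis, from 0) for 8 genes in WT (grey) and het (red) libraries, with lines between the 2 libraries of a pair and bars for mean ± SD (n = 4). Crlf2 lies at 28.1 to 29.9 CPM in het and 15.4 to 20.4 CPM in WT libraries, and Mt1 and Mt2 are lower in het in 4 of 4 pairs with WT F2 far above the other WT libraries.

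Car14 had the lowest p of the genes lower in het. It encodes a membrane-bound carbonic anhydrase, an enzyme of the acid-base balance around cells. WT libraries had 11.2, 14.4, 9.76 and 16.4 CPM, het libraries 8.21, 8.81, 5.91 and 9.61 CPM. Every het library lay below every WT library, het F2 by little. The log2 difference was -0.67 (SE 0.08), a fold of 0.630, with an adjusted p of 0.383 by edgeR and 0.00682 by DESeq2. Its position is chromosome 3, 95897768 to 95904691, minus strand, overlapping Aph1a on the opposite strand.

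Gsta4, a glutathione transferase that detoxifies products of lipid oxidation, was lower in 4 of 4 pairs. Its level was 9.49, 9.42, 6.83 and 11.5 CPM in WT and 8.18, 6.31, 5.35 and 6.75 CPM in het libraries, so the groups overlapped (log2 difference -0.48, SE 0.11, adjusted p = 0.980 by edgeR). Of 17 carbonic anhydrase and glutathione transferase genes, 12 were fitted lower and 5 higher, with a median of -0.12, and 4 were lower and 1 higher at an unadjusted p under 0.05, against 3.01% lower and 1.73% higher over all genes. The list was drawn up around Car14 and Gsta4, which were known from earlier results of these data. Those 2 of the 4 lower members were thus given in advance. The other 2 lower ones were Gstm1 (-0.19, SE 0.07) and Gstz1 (-0.17, SE 0.06), each lower in 4 of 4 pairs. Car10, an inactive relative, was the higher one (1.03, SE 0.45) at no more than 1.81 CPM. Over 15 other settings of the fit, the difference of Car10 ran from 0.69 to 1.65. Gstp1 was lower in 3 of 4 pairs, M2 being the exception, with 14.6, 26.1, 69.1 and 91.1 CPM in WT and 12.1, 36.0, 20.9 and 42.4 CPM in het libraries, a spread in which both WT female libraries stood above all others.

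Mt1 and Mt2 encode metallothioneins, small proteins that bind zinc and copper, and lie side by side on the plus strand of chromosome 8, Mt2 from 94172664 to 94173568 and Mt1 from 94179082 to 94180327, and Gm45774 overlaps Mt2 on the opposite strand. Mt1 was at 82.6, 87.8, 82.8 and 135 CPM in WT and 79.5, 54.1, 59.5 and 84.4 CPM in het libraries, and Mt2 at 57.0, 63.3, 58.6 and 95.4 CPM in WT and 56.1, 35.7, 41.8 and 58.9 CPM in het libraries. Het was lower in 4 of 4 pairs for both, by little in M1 and by more in the other 3, and the groups overlapped. The log2 differences were -0.48 (SE 0.09) and -0.51 (SE 0.10), each with an adjusted p of 0.980 by edgeR, where DESeq2 gave 0.00917 and 0.0160. Without pair M1 the edgeR difference of Mt1 was -0.59.

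Gm42418 and AY036118 are overlapping noncoding loci on chromosome 17, on opposite strands, known to collect reads of ribosomal RNA. Gm42418 was at 65.2, 91.4, 86.9 and 95.0 CPM in WT and 58.6, 54.5, 63.8 and 74.9 CPM in het libraries, and AY036118 was lower in het in 4 of 4 pairs as well (log2 differences -0.43, SE 0.08, and -0.59, SE 0.14). Whether counting used strand is not given in the sources used here, so reads of the 2 loci may not be told apart. The 12 lower genes also held Chd8 and Gsta4, described above, and Qtrt1, Commd10, Mrps28, Tes and Zfp521. Qtrt1, a subunit of the enzyme that puts queuine into transfer RNA, was at 34.3, 38.8, 36.6 and 39.3 CPM in WT and 30.7, 32.4, 26.6 and 31.5 CPM in het libraries, without overlap. Zfp521, a zinc finger factor of neural progenitors, was at 10.7 ± 0.832 CPM in WT and 8.31 ± 0.654 CPM in het libraries, also without overlap. For Commd10, Mrps28 (a protein of the mitochondrial ribosome) and Tes (a protein of cell adhesions), het was lower in 4 of 4 pairs with overlapping groups, at log2 differences of -0.27, -0.22 and -0.34. Other annotated genes overlap the positions of Commd10, Mrps28, Tes and Zfp521.

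**Figure D2:**
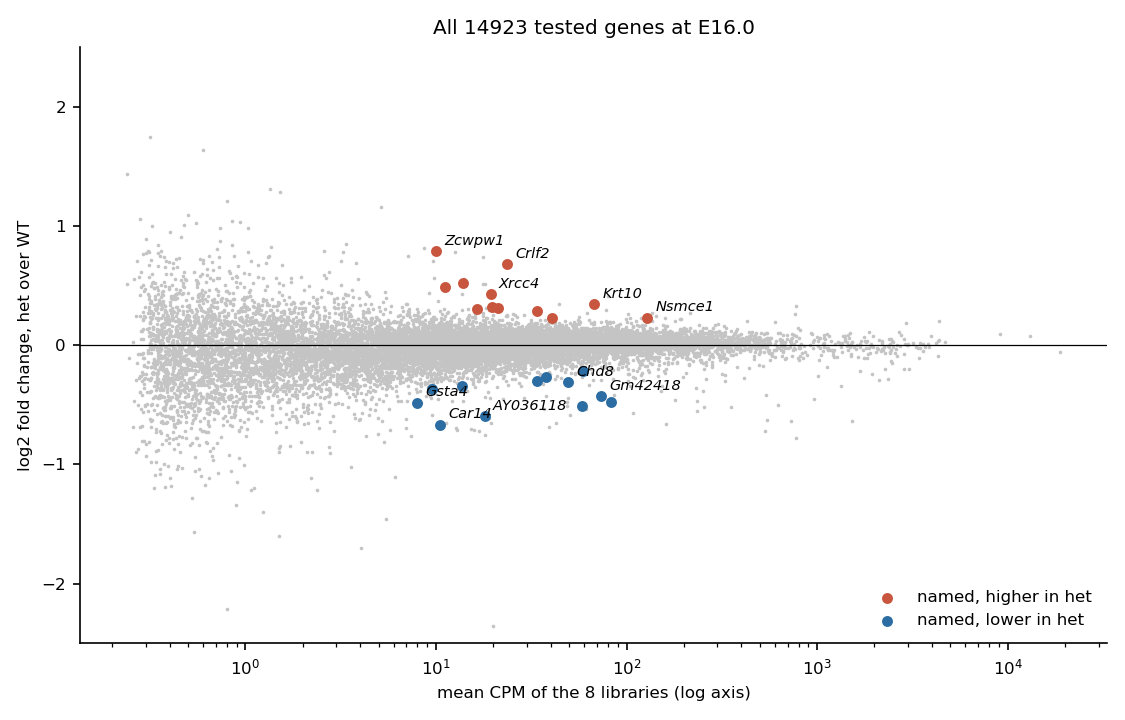
Log2 fold change of het over WT (y axis) against the mean CPM of the 8 libraries (x axis, log scale) for all 14923 tested genes, with the 24 named genes and Chd8 among them in red (higher) or blue (lower). Crlf2 lies at 0.68, Zcwpw1 at 0.79 and Car14 at -0.67, and some grey genes at similar levels lie farther from 0, such as P2ry12 (-1.11). The scatter of unnamed genes is wider below 1 CPM.

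To see in which cells the leading genes were counted, levels were taken within barcodes that carried UMIs of at least 3 different markers of 1 cell type list and of fewer than 3 of every other list. These sets are small, between 355 and 533 barcodes per library for radial glia, 79 to 185 for intermediate progenitors, 215 to 764 for deep-layer neurons and 152 to 661 for upper-layer neurons, and the values below are descriptions with no test. In radial glia barcodes Crlf2 was at 20.4, 19.7, 14.4 and 20.5 CPM in WT and 28.2, 30.1, 26.7 and 29.6 CPM in het libraries. In deep-layer neurons it was at 17.04, 20.5, 21.5 and 22.1 CPM in WT and 29.1, 29.5, 28.9 and 28.9 CPM in het libraries. Both sets had all het libraries above all WT libraries, as did intermediate progenitors, there on only 3 to 16 UMIs per library. In upper-layer neurons Crlf2 was higher in 4 of 4 pairs, at 25.7 ± 4.52 CPM in WT and 35.3 ± 8.06 CPM in het libraries (SD, n = 4 each), and the groups overlapped because of het F2 at 23.5 CPM. The sets of newborn excitatory neurons (16 to 66 barcodes per library) and interneurons (23 to 180) were smaller still. Crlf2 was higher in het in 2 of 4 pairs of the former, on 0 to 7 UMIs per library, and in 4 of 4 pairs of the latter, on 0 to 10 UMIs.

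Zcwpw1 and Car14 were at lower levels in deep-layer and upper-layer neurons than in radial glia. Zcwpw1 was at 8.80, 12.6, 15.2 and 11.2 CPM in WT and 21.4, 29.2, 18.97 and 18.03 CPM in het radial glia barcodes, and at no more than 2.67 CPM in deep-layer and upper-layer neurons. For intermediate progenitors it was higher in het in 3 of 4 pairs, on 2 to 9 UMIs per library. In newborn excitatory neurons and interneurons Zcwpw1 had 0 to 3 UMIs per library, which gave from 0 to 15.3 CPM, so its level there was not measurable at this depth. Car14 was at 20.4, 26.2, 15.2 and 17.6 CPM in WT and 9.53, 15.1, 9.48 and 11.9 CPM in het radial glia barcodes. In deep-layer neurons it had 0 UMIs in the 4 WT libraries, which allows up to 3.69 CPM in the shallowest of them, F2 (3 counts, counting error only), and at most 2 UMIs in a het library. Car14 was also lower in all het than in all WT libraries in intermediate progenitor barcodes (18.7 ± 4.35 against 9.37 ± 1.93 CPM), on 3 to 10 UMIs per library. Mt1 and Mt2 were likewise counted in radial glia: Mt1 was at 246, 210, 309 and 333 CPM in WT and 213, 187, 270 and 241 CPM in het barcodes of that set, lower in 4 of 4 pairs with overlap. Gm42418 had all het below all WT libraries in radial glia barcodes, at 54.8 ± 4.97 against 78.2 ± 5.81 CPM, and overlapping groups in the other 3 sets.

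Krt10, Nsmce1, Prss36 and Xrcc4 were counted in progenitors and neurons alike. Krt10 was higher in het in 4 of 4 pairs in each of the 4 sets, with non-overlapping groups in intermediate progenitors, deep-layer and upper-layer neurons. Xrcc4 had all het above all WT libraries in radial glia (17.8 ± 2.33 against 25.4 ± 4.54 CPM) and deep-layer neurons (14.502 ± 1.58 against 21.6 ± 2.88 CPM), but was higher in 2 of 4 pairs in upper-layer neurons and in intermediate progenitors. BC025920 was higher in 2 of 4 pairs in radial glia, at 8.81 ± 1.11 and 9.13 ± 2.51 CPM, and in 3 of 4 in deep-layer neurons. It was higher in 4 of 4 pairs in upper-layer neurons, at 15.1 ± 2.17 and 19.99 ± 3.57 CPM, and in intermediate progenitors, at 12.1 ± 4.28 and 24.1 ± 3.06 CPM, there without overlap on 3 to 20 UMIs per library. Whether these sets differ in the effect of the genotype was not tested. Chd8 had all het below all WT libraries in deep-layer neurons, with 89.4, 79.4, 88.2 and 92.2 CPM in WT and 77.2, 58.6, 56.9 and 65.4 CPM in het libraries. In radial glia it was lower in 3 of 4 pairs, M1 being the exception with 28.8 CPM in WT and 39.7 CPM in het.

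**Figure D3:**
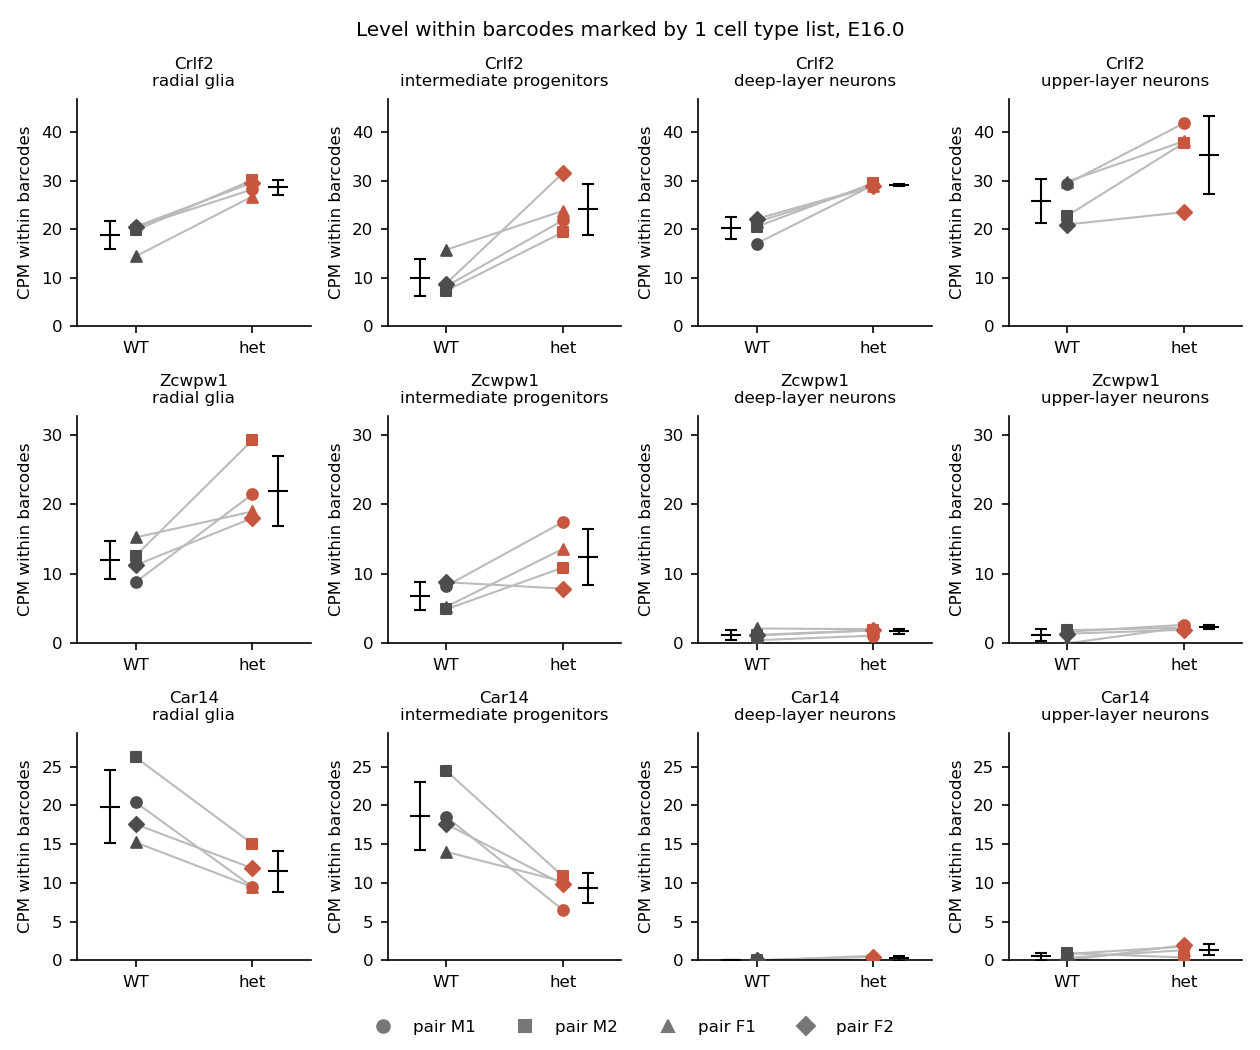
Level in CPM (y axis, from 0, 1 scale per gene) of Crlf2, Zcwpw1 and Car14 within barcodes marked by a single cell type list, in WT (grey) and het (red) libraries, with lines between pairs and bars for mean ± SD (n = 4). Crlf2 is higher in het in 4 of 4 pairs of each of the 4 sets drawn (the 2 smallest sets, newborn excitatory neurons and interneurons, are not drawn), whereas Zcwpw1 and Car14 are at 2.67 CPM or less in deep-layer and upper-layer neurons.

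The makeup of the tissue was described with the marker lists. Every marker of 14 of the 15 cell type lists had UMIs in at least 1 library, and in the hem and choroid plexus list Wnt3a was at 0 in each of the 8 and Ttr was at most 0.031 CPM. In barcodes thinned to 2000 UMIs (607 shallower ones were left out), 34.8 ± 8.02% in WT and 31.8 ± 6.92% in het libraries carried at least 3 radial glia markers (SD, n = 4 each). That difference of -2.95 percentage points was -6.17 without pair M1 and -0.72 without pair F2. For intermediate progenitors, 23.9 ± 4.02% in WT and 24.6 ± 4.04% in het libraries carried at least 3 markers. In the same order the shares were 16.3 ± 3.78% and 15.8 ± 1.36% for deep-layer and 15.1 ± 2.71% and 15.3 ± 1.95% for upper-layer neurons. For interneurons they were 2.23 ± 1.05% and 2.62 ± 0.991%. A barcode can count for more than 1 list, so these shares are not fractions of cells. The lowest unadjusted p of the 15 shares was 0.229, for microglia, and every adjusted p was at least 0.986 (exact permutation test). The smallest p that 70 splits of 4 libraries against 4 allow is 0.0286, or 0.429 for 1 share alone after adjustment over 15 lists, so the adjusted values could not have shown a difference in a single share. The lists overlapped: 8.23% to 23.4% of barcodes with 3 upper-layer markers also carried 3 radial glia markers. In the WT libraries 13.9% to 27.1% of them carried 3 intermediate progenitor markers. The cause of this overlap was not tested. Hem and choroid plexus markers reached 3 in 0 of 41764 thinned barcodes over the 8 libraries, which allows a pooled share of up to 0.00718% (counting error only), and in 1 barcode, of het M2, before thinning.

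The summed level of the radial glia markers was lower in het in 3 of 4 pairs and higher in M1. Of 10 listed, 9 were fitted lower and 1 higher, with a median of -0.15, and none passed adjustment. The higher one was Ptprz1, a receptor phosphatase, at 0.03 (SE 0.07). Hes1, a Notch target that keeps progenitors undifferentiated, was at 177, 179, 82.2 and 246 CPM in WT and 214, 101, 70.8 and 162 CPM in het libraries. The log2 difference was -0.35 (SE 0.14, adjusted p = 0.980 by edgeR) with pair M1 and -0.52 without it. Aldoc, a glycolytic enzyme of radial glia and astrocytes, was at 334, 385, 230 and 415 CPM in WT and 384, 270, 201 and 301 CPM in het libraries, and Ttyh1 and Pax6 had the same exception in M1. The summed CPM of the list was 5364, 6353, 4070 and 6957 for WT and 6668, 4704, 3699 and 5443 for het libraries, with wide overlap. The share of barcodes with 3 radial glia markers was also higher in het in M1 and lower in the other 3 pairs. Within the radial glia barcodes, which these markers helped to choose, Aldoc was at 1076 ± 48.2 and 1051 ± 70.7 CPM and Hes1 at 510 ± 133 and 454 ± 114 CPM in WT and het libraries (SD, n = 4 each). Summed over a whole library, fewer cells of a type and less RNA per cell cannot be told apart.

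The medians of 4 further lists lay within 0.07 of 0, with 0.06 for intermediate progenitors and for newborn excitatory neurons, 0.03 for deep-layer and 0.07 for upper-layer neurons. Eomes, the factor that marks intermediate progenitors, was at 186, 196, 165 and 208 CPM in WT and 246, 220, 173 and 200 CPM in het libraries (0.14, SE 0.07), while Neurog2 differed by 0.03 (SE 0.08). The difference of Eomes ran from 0.087 to 0.22 over 15 other settings of the fit. Tbr1 and Bcl11b, which specify deep-layer neurons, differed by 0.02 (SE 0.08) and 0.09 (SE 0.16). The lowest p of these lists was that of Foxp2, at -0.17 (SE 0.06), and all had adjusted p of at least 0.980 by edgeR.

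Among the rarer cell types, endothelial cells, pericytes and meningeal fibroblasts had medians of 0.10, 0.02 and 0.07, and oligodendrocyte precursors one of 0.28. All 6 Cajal-Retzius genes, of the early-born neurons that secrete reelin, were fitted higher, with a median of 0.65. The share of thinned barcodes with 3 of these markers was 0.170 ± 0.0705% for WT and 0.252 ± 0.108% for het, higher in 3 of 4 pairs. In WT that was 5 to 10 barcodes per library. The 6 genes were listed as markers of 1 cell type and may come from the same few cells, so they cannot be taken as separate observations. How many of their UMIs lay in these barcodes was not tested. Reln was at 16.5, 15.4, 8.22 and 18.4 CPM in WT and 29.9, 9.54, 23.2 and 24.1 CPM in het libraries, lower only in pair M2. Calb2 was at 4.43, 3.25, 0.858 and 1.63 CPM in WT and 4.33, 3.56, 4.15 and 4.74 CPM in het libraries, with both WT females below all other libraries. Interneuron genes had a median of 0.34, 6 of 10 fitted higher and 4 lower. Dlx1, a homeobox factor of these cells, was at 5.96, 8.94, 18.5 and 5.30 CPM in WT and 10.8, 14.2, 16.97 and 20.4 CPM in het libraries, and Dlx2 and Dlx6os1 were also higher in 3 of 4 pairs, F1 being the exception. Dlx1, Dlx2 and Dlx6os1 are all among the 6 fitted higher. The share of barcodes with 3 interneuron markers was higher in het in 2 of 4 pairs. It was highest in WT F1 (3.71%) and lowest in het M1 (1.15%) and WT F2 (1.24%), and its part in these differences was not tested.

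Microglia genes, of the immune cells of the brain, were fitted lower in 8 of 8 cases, with a median of -0.70. Only 7 to 25 thinned barcodes per WT library carried at least 3 of these markers. The 8 genes may come from the same few cells, so they cannot be taken as separate observations. The summed CPM of the list was 110, 87.9, 100.4 and 46.9 for WT and 117, 27.0, 37.8 and 63.6 for het libraries, so that M2 and F1 were lower in het and M1 and F2 were not. Csf1r, the growth factor receptor these cells depend on, was at 9.18, 5.66, 5.88 and 2.93 CPM in WT and 8.47, 1.67, 2.35 and 3.41 CPM in het libraries (-0.75, SE 0.30). Its difference was -0.44 without pair M2 and -1.01 without pair F2. P2ry12, a receptor for nucleotides, was at 9.90, 8.17, 7.95 and 4.88 CPM in WT and 10.7, 1.98, 1.71 and 3.47 CPM in het libraries (-1.11, SE 0.36). Neither passed adjustment (adjusted p = 0.980 by edgeR), and the share of barcodes with 3 microglia markers was 0.336 ± 0.123% for WT and 0.228 ± 0.110% for het. The difference of -0.108 percentage points was -0.0454 without pair F1 and -0.166 without pair F2.

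Red blood cell genes were fitted lower in 8 of 8 cases, with a median of -0.65, but this depended on the choice of barcodes. Hba-a1, an adult alpha-globin gene, was at 856, 1121, 587 and 724 CPM in WT and 1236, 711, 331 and 241 CPM in het libraries over the kept barcodes (-0.64, SE 0.27). Over all deposited barcodes, which added 528, it was at 3784, 3968, 2673 and 4500 CPM in WT and 6292, 2988, 4088 and 3258 CPM in het libraries, and the log2 difference was 0.12. Most Hba-a1 UMIs were thus in the 528 barcodes that failed at least 1 of the limits of 1000 UMIs and 500 genes. Hbb-y, an embryonic globin, was at 59.8 and 81.4 CPM in the WT males and between 1.36 and 4.97 CPM in the other 6 libraries over the kept barcodes. Over all deposited barcodes that pattern was gone, with 110, 80.3, 1.35 and 121 CPM for WT and 3.47, 165, 55.8 and 221 CPM for het libraries.

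**Figure D4:**
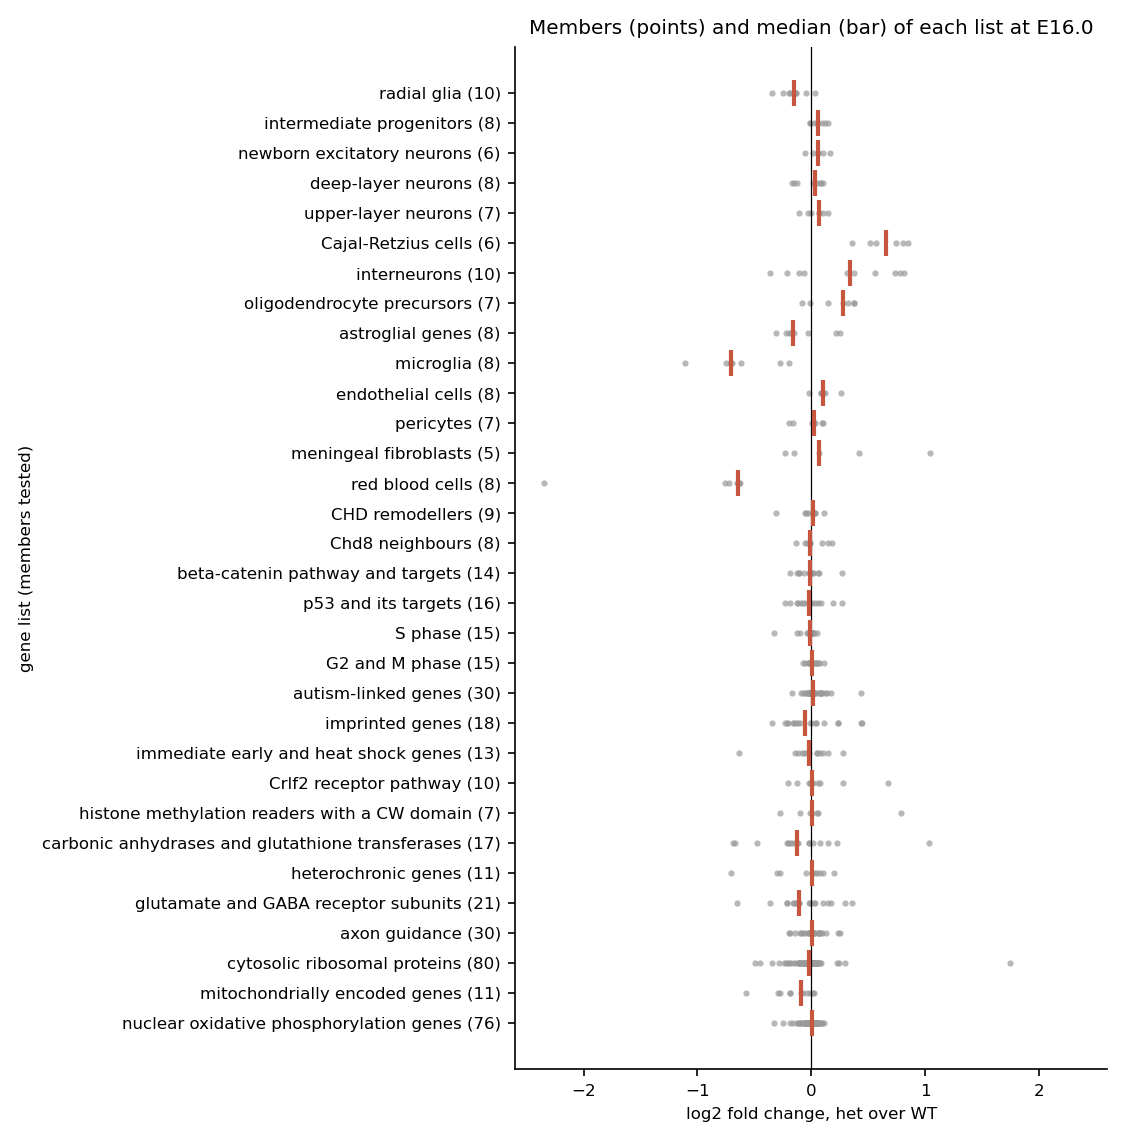
Log2 fold change of het over WT (x axis) for the tested members (points) of each gene list (y axis, number tested in brackets), with the median of the list as a red bar. Medians of the newborn, deep-layer and upper-layer excitatory neuron lists lie within 0.07 of 0, those of microglia (-0.70) and red blood cells (-0.65) lie lower and that of Cajal-Retzius cells (0.65) higher, and none of the genes shown passed adjustment by edgeR.

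Further lists were chosen for what Chd8 is known to do. Over all genes, 1.73% were higher and 3.01% lower at an unadjusted p under 0.05, and a count of 0 or 1 in lists this short is too small to be told apart from that share. Among the 9 CHD remodellers the groups of Chd8, the targeted gene, and of Chd1 did not overlap, where 1.2% of all genes had every het library above every WT library and 0.717% had the reverse. Chd1 was at 27.2, 28.6, 30.4 and 29.7 CPM in WT and 30.9, 32.9, 30.6 and 30.7 CPM in het libraries (log2 difference 0.11, SE 0.06). Of the 8 neighbours of Chd8 on chromosome 14, 3 were fitted higher and 5 lower, with a median of -0.01 and 1 at an unadjusted p under 0.05. That one, Supt16, a subunit of the FACT histone chaperone, was higher in 4 of 4 pairs, at 76.3, 72.3, 84.8 and 74.7 CPM in WT and 92.7, 88.0, 85.0 and 84.3 CPM in het libraries (0.18, SE 0.06). Of 14 tested genes of the beta-catenin pathway, 5 were fitted higher and 9 lower, with none at an unadjusted p under 0.05 and a median of -0.01, and Ctnnb1, which encodes beta-catenin, differed by -0.01 (SE 0.06). Of 16 tested p53 genes 1 had an unadjusted p under 0.05, the target Phlda3 (-0.23, SE 0.09), and Trp53 itself differed by -0.07 (SE 0.06). Among 30 autism-linked genes 0 had an unadjusted p under 0.05, with a median of 0.01. The medians of the S phase and of the G2 and M phase lists were -0.01 and 0.01. Mki67, a marker of dividing cells, differed by 0.01 (SE 0.12), while Slbp, which binds histone messenger RNA, was at -0.32 (SE 0.12).

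Of 18 imprinted genes, 10 were fitted lower and 8 higher, with a median of -0.05. Ndn, Mest and Peg3 were lower and no member was higher at an unadjusted p under 0.05, where the share of all genes was 3.01% lower and 1.73% higher. Ndn, a neuronal growth suppressor expressed from the paternal copy, was at 192, 194, 144 and 161 CPM in WT and 151, 175, 131 and 132 CPM in het libraries, lower in 4 of 4 pairs (-0.23, SE 0.07). Mest (-0.20, SE 0.08) and Peg3 (-0.16, SE 0.07) were higher in M1 only, while H19, a maternally expressed RNA, was higher in 3 of 4 pairs (0.24, SE 0.11). Hmga2, a chromatin protein of young progenitors, was at 13.6, 13.0, 9.52 and 18.4 CPM in WT and 13.3, 10.6, 6.998 and 13.6 CPM in het libraries (-0.30, SE 0.09), and Nfix, a factor of late progenitors, was at 0.20 (SE 0.09). They belong to a list of genes that mark early or late progenitors, of which 11 were tested, 7 fitted higher and 4 lower, with a median of 0.01. Gabra5, a GABA receptor subunit, was at 1.44, 2.48, 1.77 and 1.39 CPM in WT and 0.851, 0.979, 1.59 and 1.115 CPM in het libraries (-0.65, SE 0.23), in a list of 21 receptor genes of which 14 were fitted lower. Over 15 other settings of the fit, the difference of Gabra5 ran from -0.84 to -0.41. Every gene of this paragraph had an adjusted p of 0.980 by edgeR.

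To ask whether the difference at E16.0 departs from that at the other stages, the het effect at E16.0 was compared with the mean of the effects at E12.5, E14.5 and E17.5 in 1 fit over 32 libraries. Crlf2 was higher in het in 4 of 4 pairs at each stage, by 0.79, 0.75, 0.69 and 0.53 in order of age, and the departure of E16.0 was -0.0035 (SE 0.08). Zcwpw1 was higher in 4 of 4 pairs at each stage too, by 0.84, 0.64, 0.80 and 0.71, with a departure of 0.06 (SE 0.16). Chd8 differed by -0.38, -0.23, -0.30 and -0.21. Car14 was lower in 4 of 4 pairs at every stage, by -0.19, -0.36, -0.66 and -1.26, so that E16.0 lay between E14.5 and E17.5 and its departure from the mean of the others was -0.05 (SE 0.12).

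One gene passed the test of departure, Dcn, which encodes the matrix protein decorin of fibroblasts (1 of 15997, 0.00625%). Its departure was 2.39 (SE 0.33, adjusted p = 0.0104 by edgeR with the pair as a block). At E16.0 Dcn was at 0.531, 1.09, 0.237 and 0.325 CPM in WT and 0.814, 2.46, 0.441 and 0.899 CPM in het libraries, with a het effect of 1.06. The effects at the other stages were -0.95 at E12.5, on 16.2 ± 4.14 and 7.92 ± 2.09 CPM (SD, n = 4 each), -0.75 at E14.5, on 1.18 ± 0.544 and 0.726 ± 0.282 CPM, and -2.28 at E17.5. That last and largest effect was on 0.552 ± 0.820 and 0.101 ± 0.0871 CPM, with het higher in 1 of 4 pairs. The call was lost without pair M2 or without pair F2. Lum and Col3a1, which also encode matrix proteins of fibroblasts, were among the 10 genes with the lowest p of this test and did not pass, with departures of 3.18 (adjusted p = 0.431) and 1.42 (adjusted p = 0.893) by edgeR, in the same direction as Dcn. All of them belong to the list of meningeal fibroblast markers, of which 5 were tested at E16.0, 3 fitted higher and 2 lower (median 0.07). The summed CPM of that list was higher in het in M1, M2 and F1 and lower in F2 (8.78 in WT, 5.48 in het). Only 0 to 2 thinned barcodes per WT library at E16.0 carried at least 3 of its markers. Other genes of opposite sign at some stages did not pass either. Gm42418 was lower in 4 of 4 pairs at E12.5 (-0.33) and at E16.0 (-0.42) and higher in 4 of 4 pairs at E14.5 and at E17.5, with a departure of -0.52 (SE 0.15, adjusted p = 0.979). Gucy1a1 was lower in het in 4 of 4 pairs at E14.5 and higher in 4 of 4 pairs at E16.0 and at E17.5, with a departure of 0.36 (SE 0.15, adjusted p = 0.979).

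**Figure D5:**
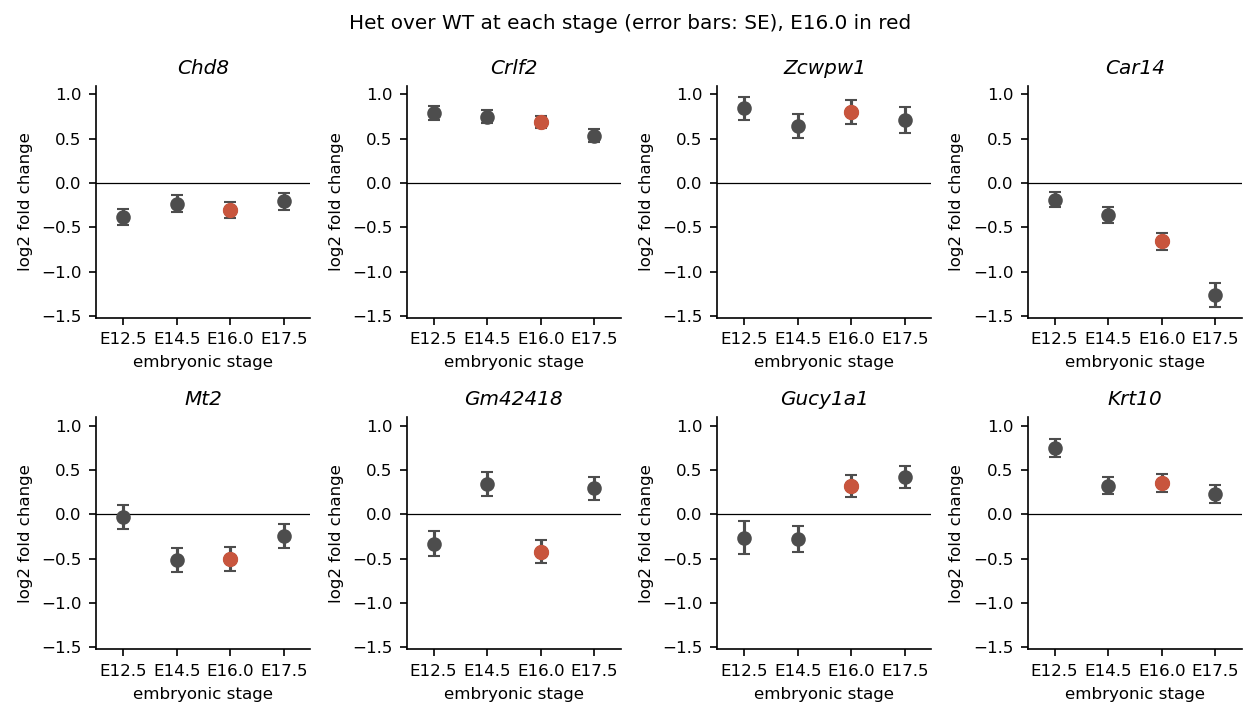
Log2 fold change of het over WT (y axis) at 4 embryonic stages (x axis) for 8 genes, from 1 edgeR fit over 32 libraries with the pair as a block, with SE as error bars and E16.0 in red. Crlf2 and Zcwpw1 are above 0 at each stage, Car14 is -0.19 at E12.5 and -1.26 at E17.5, and Gm42418 and Gucy1a1 lie on both sides of 0.

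The effect of the genotype was also compared between males and females. No gene passed (0 of 14923, 0%), with 334 genes at an unadjusted p under 0.05 by edgeR. That count was 155 without pair M2 and 582 without pair F1, and 1 gene was called without pair F2. This fit leaves out the pairing. With the pair as a block, edgeR also called 0 genes, with 759 at an unadjusted p under 0.05, and DESeq2 with no block called 1. Genes did differ between the sexes themselves, which at E16.0 also differ in the prefix of the library code. Of 14923 genes 73 were called between males and females (0.489%), 68 of them higher in females, but between 2 and 7 without any 1 pair. This fit cannot hold the pair as a block, treats the 2 libraries of a pair as independent and so gives p-values that are too small. With the counts of each pair summed, 2 pairs against 2, it called 0 genes. Xist was not called there either, so that count of 0 does not show that the sexes are alike.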

How the data were processed

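Single-cell RNA-seq counts were used as deposited, as whole-number UMI counts per gene and barcode in 1 matrix per library. Per the submitters' processing notes, the authors used STAR 2.7.9a, STARsolo, Cell Ranger and the genome build mm10; which tool made which step, and whether counting used strand, is not given in the sources used here. Barcodes with at least 1000 UMIs and 500 genes were kept and their counts summed per library, between 21526605 and 47992103 UMIs at E16.0. The groups came from the labelled stage and genotype, the pairs from the shared replicate label. The labels describe litter- and sex-matched pairs, and deviations from the group means correlated at 0.353 to 0.756 within the 4 pairs over 10411 genes. The 2 male pairs were not separated by this: WT M2 with het M1 gave 0.539 (0.516 within M1) and WT M1 with het M2 gave 0.431 (0.353 within M2).

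Genes passing edgeR's expression filter were tested with edgeR 4.0.16 (TMM scaling, quasi-likelihood test, pair as a block, Benjamini-Hochberg adjustment, threshold 0.05) in R 4.3.3, after a test on simulated data. A log2 difference is het over WT from this fit, and CPM is UMIs per 1000000 kept UMIs of a library. DESeq2 1.42.0, limma 3.58.1 and other settings were alternatives. The comparison of males with females and the main test of genotype by sex had no block. P-values of fits with the pair as a block rest on the spread of the het-over-WT difference between pairs. Those of tests without a block rest on the spread between embryos. A library with 0 counts allows up to 0.0625 to 0.139 CPM (3 counts, counting error only). Shares of marked barcodes and depth were compared by 2-sided exact permutation tests that ignore the pairs, with Python 3.11.15. The p-values of the shares were adjusted over 15 lists.

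Named were Chd8, called genes, the 12 genes in each direction with the lowest p among those with a mean of at least 5 CPM, genes known from earlier results (Crlf2, Zcwpw1, Car14 and Gsta4), and members of gene lists with the lowest p or listed first; some list members appear only in counts. Members and lists were chosen with earlier results of these data known. Gene positions come from GENCODE M21, which held 99.6% of the 32285 gene IDs, and promoters from RefSeq.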

Additional observations from a re-analysis of the deposited data

Results flagged for a closer look

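In 14 of 264 groups of 4 libraries, 1 library stood far from the other 3 by Dixon's criterion, and chance gives about 1 in 20 such groups. WT F2 was far above the other WT libraries for the metallothionein genes Mt1 (135 CPM) and Mt2 (95.4 CPM) and for the summed meningeal fibroblast markers (8.78 CPM), and far below them for Bcl11b, a factor of deep-layer neurons (121 CPM). WT F1 was far below for Bcan, a proteoglycan of glial cells (9.55 CPM), and far above for the summed upper-layer neuron markers (990 CPM) and axon guidance genes (2039 CPM). WT M2 was far above for the summed mitochondrially encoded genes (13246 CPM).

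Among het libraries, M2 stood apart with Chd1 at 32.9 CPM, mt-Atp6 at 9.94 CPM and a share of 13.7% of barcodes with 3 deep-layer markers, M1 with 27.0 CPM summed over oligodendrocyte precursor markers and 79.3 CPM over genes with a CW domain, and F1 with 808 CPM summed over glutamate and GABA receptor genes.

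Dcn, which encodes decorin, was the only gene whose het effect at E16.0 differed from the mean of the other stages past the threshold, by 2.39 on the log2 scale (SE 0.33, adjusted p = 0.0104, edgeR with the pair as a block). No gene passed this test without pair M2 or without pair F2.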

How the results depend on the processing

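The number of genes called between het and WT at E16.0 was 0 with the pair as a block, 0 with no replicate block, 2 over all 32 libraries with a block of 16 pairs, 6 with DESeq2 and 4 with no filter on low counts, and it was 0 without any 1 pair. The test of E16.0 against the other stages called 1 gene, 0 with no replicate block, 8 with no filter and 4 with DESeq2, and between 0 and 1 without any 1 pair. The test of genotype by sex called 0 genes, 1 with DESeq2, and between 0 and 1 without any 1 pair. The cause was not tested.

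Of 79 named genes, 69 kept their direction in all 15 alternatives. Over all deposited barcodes 4 globin genes turned, to 0.12 for Hba-a1, 0.000217 for Hbb-bs, 0.0127 for Hbb-bt and 0.74 for Hbb-y. Without 1 pair, 6 genes took both signs, Neurog2 from -0.0462 to 0.0867, Tbr1 from -0.0766 to 0.0715, Bcl11b from -0.14 to 0.23, Cldn5 from -0.0760 to 0.22, Ctnnb1 from -0.0285 to 0.0110 and Mki67 from -0.14 to 0.13.

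Differences in the share of marked barcodes, in percentage points of het minus WT, changed sign in 17 cases. With at least 2 markers they were 0.634 for deep-layer neurons and 0.255 for red blood cells. Without thinning they were -0.191 for intermediate progenitors, -1.02 for upper-layer neurons, -0.252 for astroglial genes, -0.00899 for meningeal fibroblasts and 0.0572 for red blood cells. Without 1 pair they ran from -0.843 to 2.45 for intermediate progenitors, -0.260 to 0.560 for newborn neurons, -2.20 to 1.66 for deep-layer neurons, -0.667 to 0.981 for upper-layer neurons, -0.136 to 0.775 for interneurons, -0.00330 to 0.0181 for oligodendrocyte precursors, -0.00232 to 0.0251 for meningeal fibroblasts and -0.0445 to 0.0399 for red blood cells. Shares of rare types rest on few barcodes and were not distinguishable at this depth.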

Other observations

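Between the 4 male and the 4 female libraries of E16.0, which also differ in the prefix of the library code, 73 of 14923 genes were called (edgeR, adjusted p under 0.05), 68 of them higher in females. This comparison was chosen after seeing the data. It treats the 2 libraries of a pair as independent, so its p-values are too small, and with the counts of each pair summed, 2 pairs against 2, 0 genes were called, Xist included among those not called. Beside genes of the sex chromosomes, such as Xist and Ddx3y, the called genes held small proteins of the ribosome and of mitochondria. Of 80 ribosomal protein genes 12 were called, all higher in females, with a median log2 difference of -0.28 (males minus females), where the median of all genes was 0.0065. Of 76 nuclear genes of oxidative phosphorylation 13 were called, all higher in females (median -0.23). Of 11 mitochondrially encoded genes 0 were called, where 0.489% of all genes were, and 10 were fitted higher in females (median -0.10).

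Rpl36, a protein of the large ribosomal subunit, was at 1142 and 1083 CPM in the WT males, 1061 and 1108 CPM in the het males, 1742 and 2303 CPM in the WT females and 1919 and 1715 CPM in the het females (-0.88, SE 0.10, adjusted p = 0.0189 by edgeR). Tmsb10, which binds actin monomers, was at 2917, 2490, 2097 and 3279 CPM in males and 6541, 5801, 6270 and 4994 CPM in females (-1.20, SE 0.17, adjusted p = 0.0332 by edgeR). Neither gene had a male library above a female one. The count was 294 with DESeq2, 60 with library totals as the scaling, and between 2 and 7 without any 1 pair. Sex and the code prefix cannot be told apart at this stage.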
